A study of Mus musculus with 24 samples.

Results

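The genes described here are 36 listed brain endothelial genes, read from a table of 43430 genes in mouse cerebellum. The list was given by name, with earlier results of these data known, and holds pan-endothelial markers, blood-brain barrier transporters and vessel signalling genes. All 36 had 1 row in the table, and all 36 had enough counts to be tested. Whole cerebella came from mice of about 7 weeks, in 4 genotype groups of 6 mice with 3 males and 3 females each, every library a biological replicate per the series text.

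The Cre control mice carry the Cre recombinase that makes the knockout conditional. The NDI1 control mice express NDI1, a single-protein enzyme of yeast mitochondria that turns NADH back into NAD+ but moves no protons. In cKO mice a conditional knockout impairs complex I of the respiratory chain in brain, and cKO+NDI1 mice have both the knockout and NDI1. The labels give neither the gene removed nor the promoter of the Cre. In the published study the gene was Ndufs4, a complex I subunit, and the Cre was driven by nestin regulatory sequence, which acts in precursors of neurons and glia. Ndufs4 stood at 104 to 164 CPM in Cre control (counts scaled to a common library total with TMM) and at 67.1 to 133 in cKO, so these groups overlapped (log2 fold change -0.47 ± 0.16 (SE), adjusted p = 0.0939, edgeR). Those counts cover the whole gene, including exons outside the deleted part, and so check the knockout only in part. Gt(ROSA)26Sor, the noncoding transcript of a locus often used to hold transgenes, stood at 5.66 to 9.50 CPM in the NDI1 groups and at 23.8 to 47.7 in the others.

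Endothelial cells line every brain capillary. They join through tight and adherens junctions, carry nutrients across the barrier by dedicated transporters, and hold quiescence through angiopoietin, Notch, BMP and flow-sensing signals. Transcription factors of the ETS, SOXF and KLF families also act in endothelial cells. Endothelial cells make up a small part of cerebellar RNA, and in whole tissue fewer cells of a type cannot be told apart from less RNA per cell. Each library held between 7584374 and 19785264 counts. The median total was lowest in cKO, at 11547903, against 15254778 to 15874079 in the other groups. The smallest single total was that of cKO+NDI1 F3. Granule neuron, Purkinje and glial markers summed to between 17018 and 21914 CPM in every library, so markers of the labelled tissue were present throughout.

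Per length, the most abundant members were Itm2a, a small membrane protein (81.6 CPM per kilobase over all libraries), Cldn5, the main claudin of the endothelial tight junction (49.8), and Slc2a1, the glucose transporter GLUT1 (35.2). Erg, an ETS factor of endothelial identity, was the least abundant at 0.271 CPM per kilobase. Some listed genes are also made outside the endothelium in brain: Slc2a1 and Slco1c1 in glia or choroid plexus, and Fli1 in microglia.

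The knockout was first compared with the Cre control. In all, 10 of the 36 genes rose in cKO and 0 fell, where 3.06% of all 15300 genes tested rose (edgeR's quasi-likelihood test, adjusted p under 0.05 over all genes tested). The risers were Pecam1, Eng, Robo4, Adgrl4, Sox17, Sox18, Bcl6b, Edn1, Nos3 and Ctla2a, with log2 fold changes between 0.34 and 1.35. In 8 of them the lowest cKO library exceeded the highest Cre control library, a separation found for 1.61% of all genes. Over the whole list, 32 of 36 log2 fold changes were positive and the median was 0.32, against 48.1% positive and a median of -0.01 over all genes. Members differed by role: 3 of 6 transcription factors and 2 of 3 secreted or vasoactive genes rose, against 3 of 9 receptors, 1 of 8 junction and surface glycoproteins, 1 of 5 other surface and small proteins and 0 of 5 barrier transporters. These shares by role were not tested against each other. At an unadjusted p under 0.05 in either direction stood 16 of the 36 members and 18.5% of all genes.

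**Figure D1:**
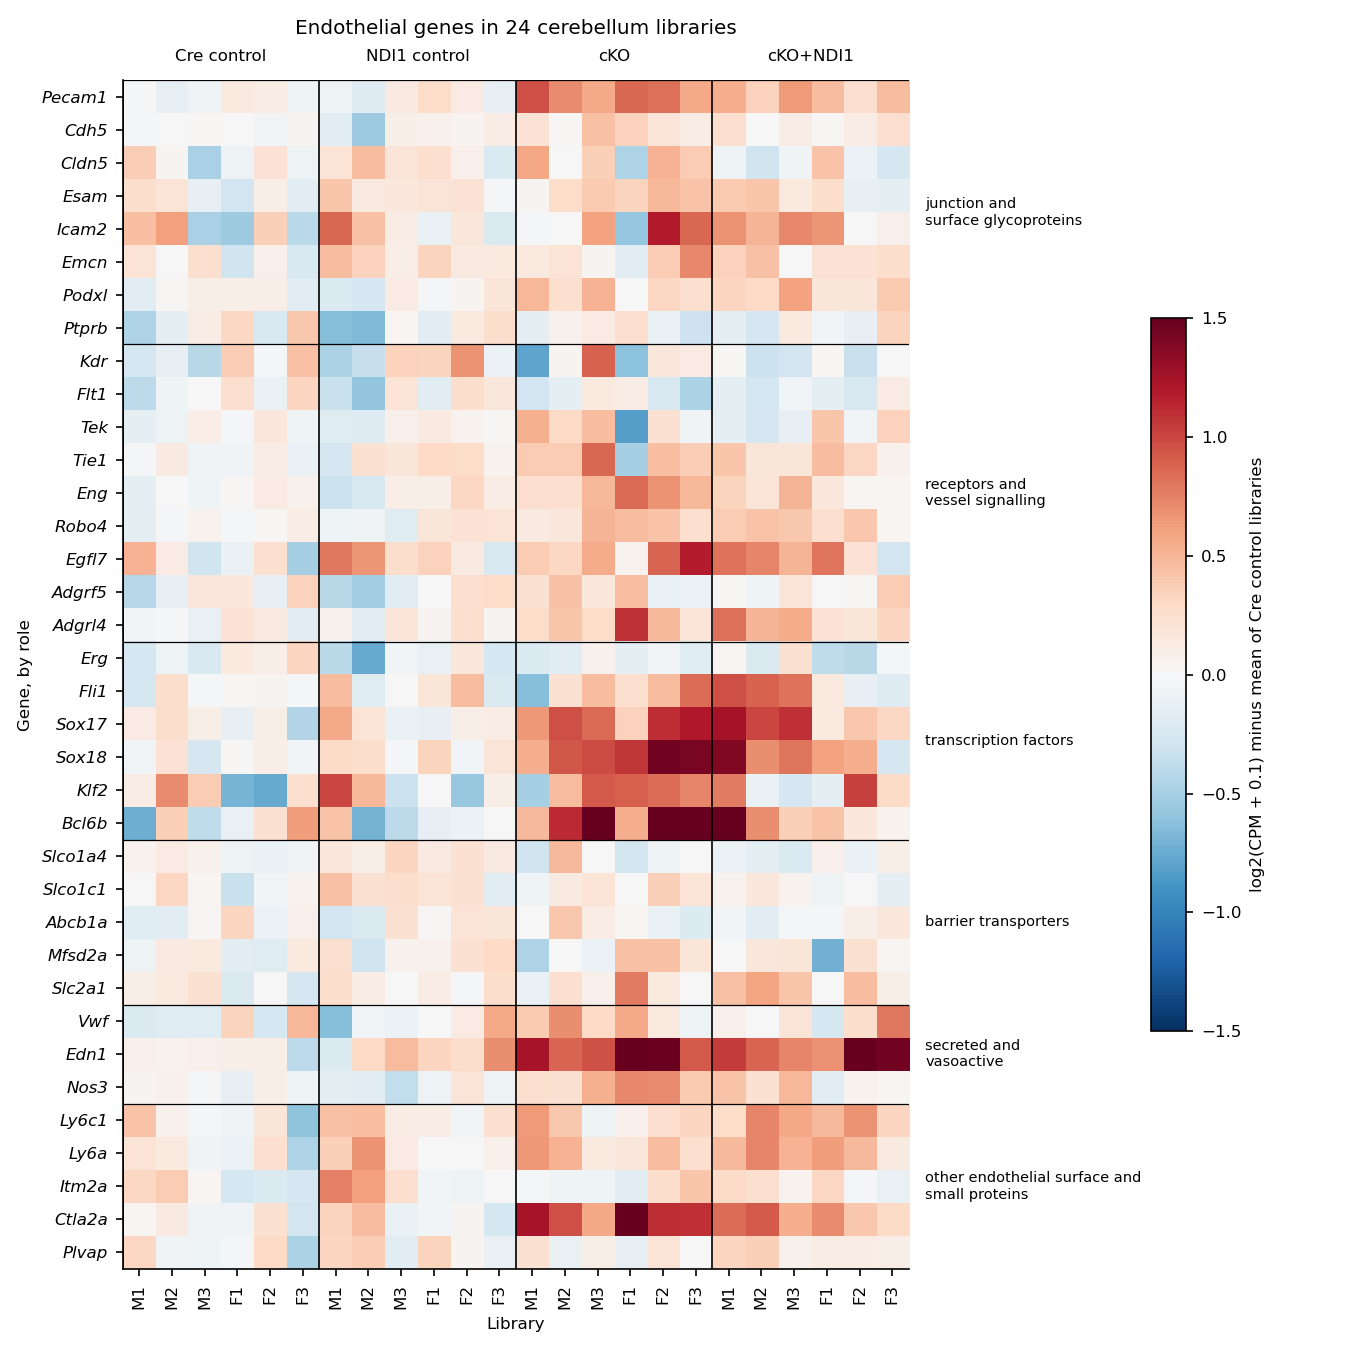
Level of the 36 endothelial genes (rows, by role) in 24 libraries (columns, by group), as log2(CPM + 0.1) minus the mean of the Cre control libraries; red is higher and blue lower. Sox17, Sox18, Bcl6b, Edn1 and Ctla2a are the reddest rows in cKO, while the transporter rows stay pale.

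Among the junction and surface glycoproteins, Pecam1 was the only gene to rise. Pecam1 (ENSMUSG00000020717) encodes PECAM-1, which sits at contacts between endothelial cells, and lies at chr11:106654217-106750628 in the mm10 build on the minus strand. Its level was 25.5 to 30.7 CPM in Cre control (median 27.0), 24.3 to 33.6 in NDI1 control (28.1), 41.0 to 54.3 in cKO (47.3) and 33.0 to 43.0 in cKO+NDI1 (38.4). All 6 cKO libraries were above all 12 control libraries, and the cKO+NDI1 libraries overlapped the highest NDI1 control. The log2 fold change in cKO was 0.76 ± 0.09 (SE), with an adjusted p of 0.000151. Cldn5, the highest of this role, stood at 46.6 to 84.4 CPM in Cre control (median 64.6), 56.1 to 89.6 in NDI1 control (74.9), 47.3 to 97.5 in cKO (84.3) and 52.8 to 87.4 in cKO+NDI1 (61.5). All 4 groups overlapped, and its log2 fold change in cKO was 0.25 ± 0.16 (adjusted p = 0.446). The other 6 genes of the role did not pass. Podxl, a sialomucin of the luminal surface, was at 0.30 ± 0.09 (adjusted p = 0.0635), and Esam, a junctional immunoglobulin protein, at 0.33 ± 0.11 (0.0721). Cdh5, VE-cadherin of the adherens junction, was at 0.23 ± 0.09 (0.165), and Ptprb, a phosphatase that acts on VE-cadherin and TIE2, at -0.03 ± 0.15 (0.96).

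The receptors that rose were Eng, Robo4 and Adgrl4. Eng, the BMP co-receptor endoglin (chr2:32646595-32682669, plus strand), stood at 27.0 to 32.3 CPM in Cre control (median 29.7), 23.6 to 36.6 in NDI1 control (31.5), 35.1 to 53.5 in cKO (41.7) and 30.1 to 41.97 in cKO+NDI1 (33.3). Its cKO libraries did not overlap the Cre control, but the lowest lay below the highest NDI1 control library. The log2 fold change was 0.51 ± 0.11 with an adjusted p of 0.00595. An opposite-strand gene, Fpgs, shares 61 exon bases with Eng, and the strand setting of the counting is not given in the sources used here.

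Robo4, a roundabout receptor that restrains vessel leak, stood at 6.61 to 7.83 CPM in Cre control (median 7.28), 6.37 to 8.47 in NDI1 control (7.61), 7.97 to 10.4 in cKO (9.22) and 7.41 to 9.83 in cKO+NDI1 (9.54). Adgrl4, an adhesion G protein-coupled receptor of vessels, stood at 29.3 to 38.4 CPM in Cre control (median 32.2), 29.6 to 38.8 in NDI1 control (34.2), 37.7 to 70.3 in cKO (41.95) and 37.4 to 58.4 in cKO+NDI1 (44.1). Robo4 separated from the Cre control in cKO, whereas the lowest Adgrl4 value in cKO fell inside the Cre control range. The log2 fold changes were 0.34 ± 0.09 for Robo4 (adjusted p = 0.0349) and 0.48 ± 0.13 for Adgrl4 (0.0324). Each lost its call when 1 of 7 libraries was left out: Cre control M1, M2, F1 or F2 or cKO M3, F1 or F2 for Robo4 (highest adjusted p = 0.0818), and Cre control M1, M2, M3, F2 or F3 or cKO F1 or F2 for Adgrl4 (0.0971). The VEGF receptors Kdr and Flt1 did not pass, at 0.08 ± 0.22 (adjusted p = 0.91) and -0.14 ± 0.13 (0.649). Flt1, the receptor with the most counts, stood at 45.6 to 75.3 CPM in Cre control (median 58.4), 39.8 to 71.9 in NDI1 control (60.6), 43.0 to 66.4 in cKO (52.7) and 49.99 to 65.6 in cKO+NDI1 (54.3), with overlap throughout. Tie1, an orphan partner of the angiopoietin receptor TIE2, was at 0.38 ± 0.14 (adjusted p = 0.116) and Tek, which encodes TIE2, at 0.17 ± 0.16 (0.623). Egfl7, a secreted vascular protein, had the largest log2 fold change of the role, 0.59 ± 0.20 (adjusted p = 0.0978), and did not pass.

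The transcription factors that rose were Sox17, Sox18 and Bcl6b, and they held 3 of the 5 largest fold changes in the list. Sox17 and Sox18 are SOXF factors of arterial and vascular development, at chr1:4490931-4497354 and chr2:181669836-181671640. Sox17 stood at 5.14 to 8.41 CPM in Cre control (median 7.46), 6.45 to 10.5 in NDI1 control (7.51), 8.97 to 16.2 in cKO (13.2) and 7.77 to 16.8 in cKO+NDI1 (11.7). Sox18 stood at 7.22 to 10.1 CPM in Cre control (median 8.58), 8.41 to 10.9 in NDI1 control (10.1), 12.6 to 23.8 in cKO (17.7) and 7.27 to 22.8 in cKO+NDI1 (13.6). Both genes separated cKO from the Cre control, Sox18 from the NDI1 control as well, and both spread widely in cKO+NDI1, whose lowest library was within the Cre control range. The log2 fold changes in cKO were 0.90 ± 0.16 for Sox17 (adjusted p = 0.00211) and 1.10 ± 0.18 for Sox18 (0.000983).

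Bcl6b, a zinc finger repressor enriched in endothelium (chr11:70224128-70229798), had the largest log2 fold change in the list, 1.35 ± 0.29 (adjusted p = 0.0091). It was scarce: 1.26 to 3.41 CPM in Cre control (median 2.27), 1.28 to 2.94 in NDI1 control (1.997), 3.08 to 9.19 in cKO (5.57) and 2.25 to 6.49 in cKO+NDI1 (2.88). The lowest cKO libraries lay inside the Cre control range. Klf2, which endothelium switches on under laminar flow, had the most counts of the role and the widest spread within groups of all 36 genes. Klf2 stood at 7.43 to 20.6 CPM in Cre control (median 14.3), 8.47 to 25.4 in NDI1 control (13.04), 8.88 to 23.9 in cKO (21.8) and 10.5 to 25.6 in cKO+NDI1 (13.5). All groups overlapped, and its log2 fold change in cKO was 0.57 ± 0.29 (adjusted p = 0.305). The ETS factors Erg and Fli1 did not pass, at -0.12 ± 0.14 (adjusted p = 0.739) and 0.34 ± 0.21 (0.422).

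Of the secreted and vasoactive genes, Edn1 and Nos3 rose, and these have opposed actions on vessel tone. Edn1 (chr13:42301270-42307989) encodes the vasoconstrictor endothelin-1 and stood at 2.45 to 3.48 CPM in Cre control (median 3.41), 2.80 to 5.33 in NDI1 control (4.04), 6.02 to 15.3 in cKO (7.07) and 5.25 to 11.3 in cKO+NDI1 (6.39). All cKO libraries exceeded all control libraries of both kinds, and the cKO+NDI1 libraries exceeded the Cre control alone. The log2 fold change was 1.34 ± 0.21, or 2.53-fold, with an adjusted p of 0.000706. Nos3 (chr5:24364810-24384474), the endothelial nitric oxide synthase, stood at 8.91 to 10.4 CPM in Cre control (median 9.77), 7.47 to 11.1 in NDI1 control (8.98), 11.3 to 16.1 in cKO (13.4) and 8.64 to 13.8 in cKO+NDI1 (10.7). Its cKO libraries lay above all controls, with a log2 fold change of 0.48 ± 0.12 (adjusted p = 0.0166). The opposite-strand genes Atg9b and Gm15587 share 294 and 1040 exon bases with Nos3. Both were low, at 1.16 and 0.167 CPM on average against 10.9 for Nos3. Vwf, the von Willebrand factor of clotting, stood at 17.7 to 30.0 CPM in Cre control (median 18.8), 13.6 to 31.6 in NDI1 control (20.9), 20.2 to 34.5 in cKO (27.1) and 17.6 to 36.9 in cKO+NDI1 (23.3). Its groups overlapped, and the log2 fold change was 0.35 ± 0.18 (adjusted p = 0.295).

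Ctla2a, which encodes a cysteine protease inhibitor, was the only 1 of the 5 remaining surface and small proteins to rise. Ctla2a (chr13:60934155-60936625, minus strand) stood at 10.5 to 14.9 CPM in Cre control (median 12.6), 10.6 to 17.6 in NDI1 control (12.7), 19.01 to 51.9 in cKO (27.3) and 15.5 to 24.1 in cKO+NDI1 (19.76). The cKO libraries exceeded all controls, and the highest, cKO F1, stood apart from the other 5. The log2 fold change was 1.23 ± 0.18 with an adjusted p of 0.000591. Its close relative Ctla2b shares 11.4% of the 50-base words of Ctla2a, so reads could be divided between them, and Ctla2b, at 0.87 ± 0.30 (adjusted p = 0.103), was far scarcer. Itm2a, the most abundant of the role, stood at 108 to 169 CPM in Cre control (median 123), 123 to 219 in NDI1 control (142), 117 to 173 in cKO (126) and 120 to 160 in cKO+NDI1 (144), with overlap throughout (0.08 ± 0.13, adjusted p = 0.819). Ly6a, a GPI-anchored surface protein known as Sca-1, was at 0.36 ± 0.12 (adjusted p = 0.0721), and Plvap, the diaphragm protein of fenestrated vessels, at 0.03 ± 0.12 (0.937).

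None of the 5 barrier transporters passed, and their log2 fold changes lay between 0.00 and 0.22. Slc2a1 stood at 135 to 189 CPM in Cre control (median 167), 159 to 194 in NDI1 control (174), 151 to 277 in cKO (175) and 161 to 244 in cKO+NDI1 (217). The groups overlapped, and the log2 fold change in cKO was 0.22 ± 0.12 (adjusted p = 0.361). Slco1a4, an organic anion transporter, was at 0.00 ± 0.10 (adjusted p = 0.993). Slco1c1, which carries thyroid hormone, was at 0.14 ± 0.09 (0.43), Abcb1a, the efflux pump P-glycoprotein, at 0.05 ± 0.11 (0.866), and Mfsd2a, a lysolipid carrier that limits transcytosis, at 0.10 ± 0.15 (0.798). A missed threshold does not show that these levels were equal.

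**Figure D2:**
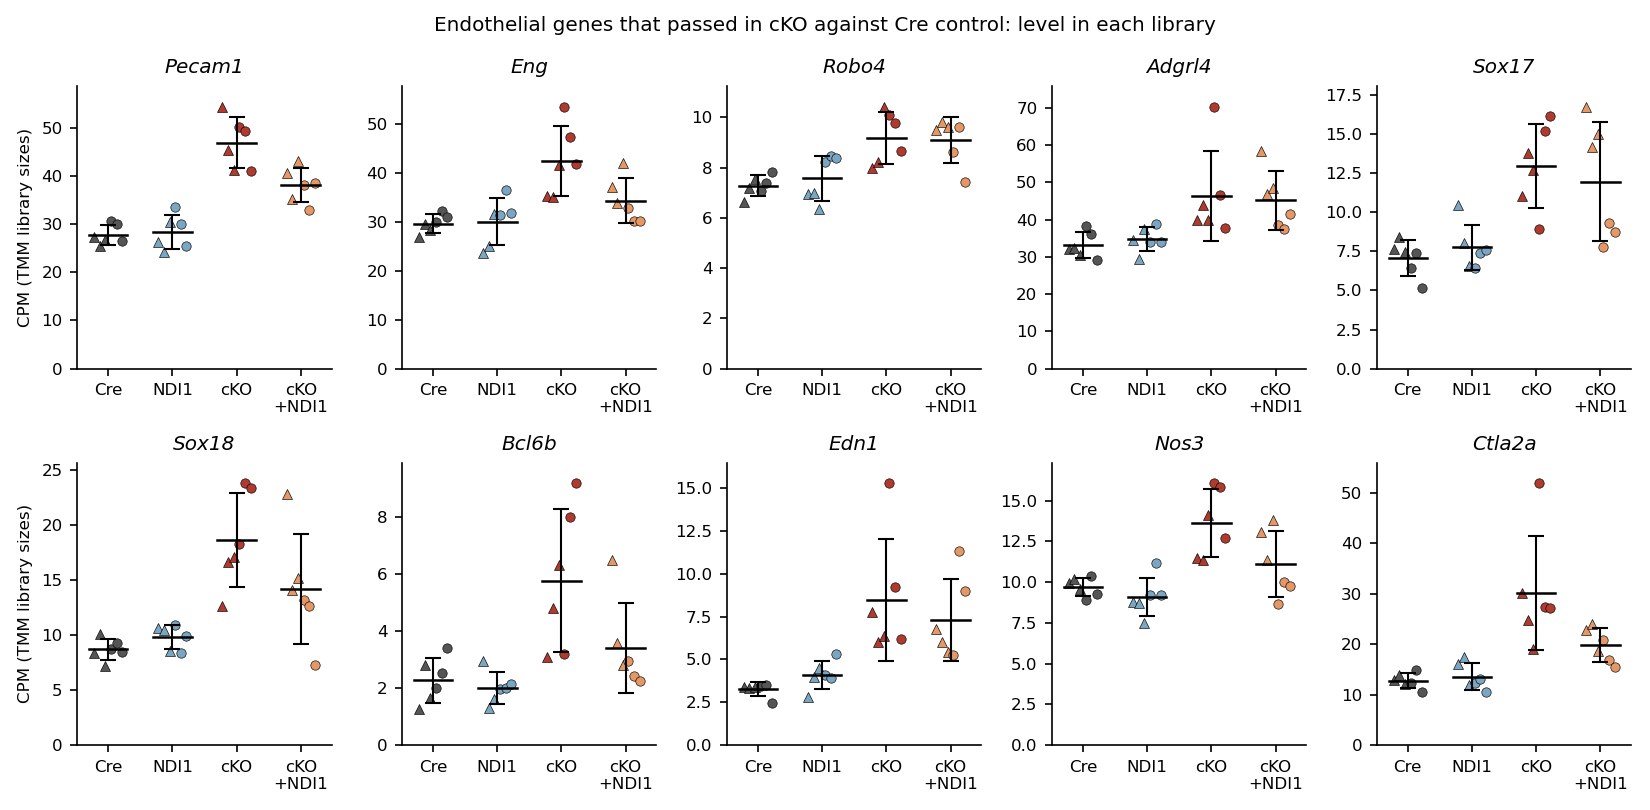
CPM of the 10 genes that rose in cKO against Cre control, 1 panel each with its own axis from 0; triangles are males, circles females, and lines and bars are group means ± SD (n = 6). Pecam1, Sox18, Edn1, Nos3 and Ctla2a in cKO lie above every control library, and cKO F1 is the highest point for Edn1, at 15.3 CPM, and for Ctla2a, at 51.9.

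Promoter sequence is shown for 3 genes that rose, Eng, Adgrl4 and Ctla2a, and for Slco1a4, a transporter that did not pass. Their windows hold no annotated exon and lie outside the gene as the deposited table places it. Other genes that did not pass also met this, among them the transporters Slco1c1 and Abcb1a, and are not shown. RefSeq windows on GRCm38.p6 matched 22 of the 36 members, 5 of them genes that rose. Each run is 250 bases, 5′ to 3′ on the strand of the gene, ending at the base before the start: chr2:32646345-32646594 on the plus strand for Eng, chr3:151437632-151437881 on the plus strand for Adgrl4, chr13:60936626-60936875 on the minus strand for Ctla2a and chr6:141856221-141856470 on the minus strand for Slco1a4. Capitals mark matches on either strand to the ETS cores CCGGAA and AGGAAG, the SOX motif AACAAT, the GATA motif AGATAA, the KLF motif CACCC, the AP-1 motif TGANTCA and the hypoxia element ACGTG.
Eng: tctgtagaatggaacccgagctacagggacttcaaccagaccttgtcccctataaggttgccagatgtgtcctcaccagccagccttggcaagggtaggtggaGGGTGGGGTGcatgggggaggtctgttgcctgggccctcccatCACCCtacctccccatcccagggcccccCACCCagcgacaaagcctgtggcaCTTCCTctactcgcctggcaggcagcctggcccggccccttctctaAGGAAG
Adgrl4: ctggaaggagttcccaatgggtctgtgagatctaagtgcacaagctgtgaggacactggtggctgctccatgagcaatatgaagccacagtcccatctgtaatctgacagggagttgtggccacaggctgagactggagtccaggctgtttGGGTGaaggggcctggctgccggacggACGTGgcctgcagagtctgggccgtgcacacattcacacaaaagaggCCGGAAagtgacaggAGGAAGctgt
Ctla2a: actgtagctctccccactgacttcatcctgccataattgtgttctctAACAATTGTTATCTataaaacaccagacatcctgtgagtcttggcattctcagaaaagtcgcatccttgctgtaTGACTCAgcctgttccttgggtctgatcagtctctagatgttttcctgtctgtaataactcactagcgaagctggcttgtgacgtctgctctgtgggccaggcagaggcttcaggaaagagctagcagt
Slco1a4: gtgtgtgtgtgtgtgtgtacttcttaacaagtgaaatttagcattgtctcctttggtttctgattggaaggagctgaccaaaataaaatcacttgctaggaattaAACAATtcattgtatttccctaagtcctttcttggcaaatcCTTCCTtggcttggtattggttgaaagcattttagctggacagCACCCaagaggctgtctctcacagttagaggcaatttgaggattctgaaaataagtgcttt
Some genes have several listed starts, so a gene is counted where any of its windows holds the motif. Such genes have more chances to be counted, and the share of windows over all genes was not counted. The ETS core AGGAAG occurred for 15 of 22 members (68.2%) and 32.3% of the 27025 genes with a window, or in 16 of the 29 member windows. Ctla2a counts through its other listed start, and the window printed here does not hold it. In the printed windows it lies 10 bases before the start of Adgrl4 and 6 before that of Eng, where it ends at the start, and Slco1a4, which did not pass, holds it on the other strand. AACAAT occurred in 22.7% of members and 10.9% of all genes, and CACCC in 77.3% against 54.5%. The Ctla2a window holds AACAAT on both strands, and its match to AGATAA overlaps one of these. The other shares were 9.09% of members against 13.6% of genes for CCGGAA, 13.6% against 11.4% for AGATAA, 4.55% against 7.82% for TGANTCA and 13.6% against 18.5% for ACGTG. A match is a run of letters and not evidence of binding.

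Genes of the same pathways outside the list were counted next. Of 113 such genes in 7 lists, a gene in more than 1 list counted once, 108 were tested, 18 rose and 2 fell in cKO, where 3.06% of all genes rose and 1.81% fell. The count that fell is near the share over all genes. Their median log2 fold change was 0.12, between that of the members and that of all genes. The 7 lists were chosen with earlier results of these data known, so their counts are not independent support. The caveolar genes Cav1 and Cavin1 rose by 0.87 ± 0.11 (adjusted p = 0.000151) and 0.60 ± 0.10 (0.00122), and Spns2, an exporter of sphingosine 1-phosphate, by 0.31 ± 0.05 (0.00099). These were 3 of 15 genes in the list of endothelin and vasoactive partners.

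Of 12 BMP and TGF-beta genes, 3 rose: Tgfb1, a TGF-beta ligand (0.63 ± 0.13, adjusted p = 0.00689), Id1, a BMP target (0.65 ± 0.17, 0.0258) and Smad6, an inhibitory SMAD (0.69 ± 0.18, 0.0304). From the Notch and arterial list, 2 of 14 rose, the ligand Jag2 (0.70 ± 0.14, 0.00406) and the target Hey1 (0.27 ± 0.07, 0.0191). The Wnt barrier list gave 2 of 17, the transcription factor Foxf2 (0.48 ± 0.12, 0.0173) and the ligand Wnt7b (0.35 ± 0.09, 0.0258). In the VEGF and angiopoietin list only Pdgfb, a recruiter of pericytes, rose among 14 tested (0.47 ± 0.11, 0.0152).

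Among 34 other endothelial genes 7 rose, led by the endothelial lectin-domain receptors Clec14a (0.98 ± 0.18, 0.00273) and Cd93 (0.96 ± 0.18, 0.00342), then by Cd34 (0.49 ± 0.11, 0.0141) and the anticoagulant Thbd (0.60 ± 0.15, 0.0172). The 2 that fell, named after their values were seen, were Slc22a8, an organic anion transporter (-0.38 ± 0.09, 0.0183) and Slc40a1, the iron exporter ferroportin (-0.62 ± 0.17, 0.0365). Of 5 tested genes of endothelial adhesion in inflammation, the chemokine Cxcl12 rose (0.46 ± 0.11, 0.0156).

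Markers of neighbouring cells were read beside these results. Of the mural markers, of pericytes and smooth muscle, 4 of 15 rose in cKO against Cre control, where 3.06% of all genes rose. They were Acta2 (0.84 ± 0.15, adjusted p = 0.00154), Rgs5 (0.25 ± 0.06, 0.0231), Cnn1 (1.07 ± 0.31, 0.047) and Myh11 (0.77 ± 0.23, 0.0495). The sum of all 15 mural markers was 392 to 473 CPM in Cre control, 432 to 489 in NDI1 control, 473 to 525 in cKO and 465 to 548 in cKO+NDI1, and none was at 0. The part of mural cells in the endothelial result was not tested. The marker lists were also chosen with earlier results of these data known.

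Other neighbours did not pass: 0 of 12 meningeal fibroblast markers (smallest p for Igf2, -0.24 ± 0.07, adjusted p = 0.065), 0 of 9 choroid plexus markers (Otx2, 0.15 ± 0.10, 0.436), 0 of 11 microglia markers (Itgam, -0.39 ± 0.12, 0.064), 0 of 5 red cell markers (Hbb-bt, -0.42 ± 0.37, 0.618) and 0 of 3 tested platelet and leukocyte markers (Itga2b, -0.24 ± 0.22, 0.619). Choroid plexus markers summed to 1128 to 4249 CPM per library and red cell markers to 189 to 1582, so both varied widely. Their part in the members' values was not tested. Among 8 tested proliferation genes 2 fell, Mcm5 (-0.43 ± 0.11, 0.0239) and Mki67 (-1.51 ± 0.43, 0.0408). Of the cerebellar cell markers 1 of 11 fell, Slc1a3, a glutamate transporter of Bergmann glia (-0.28 ± 0.05, 0.00262). The immediate early genes Maff (2.02 ± 0.48, 0.0153) and Fosb (2.96 ± 0.85, 0.0438) rose and Arc (-0.37 ± 0.10, 0.0362) fell among 13 tested. Of these 13 fold changes 11 were positive, with a median of 0.55 against -0.01 over all genes. At an unadjusted p under 0.05 in edgeR stood 8 of 13, against 18.5% of all genes. The sum of the immediate early genes was 822 CPM in cKO F1 and 245 to 415 in the other 23 libraries. Without cKO F1, 10 members were called, Robo4 and Adgrl4 not among them, and 340 of 15399 genes rose.

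**Figure D3:**
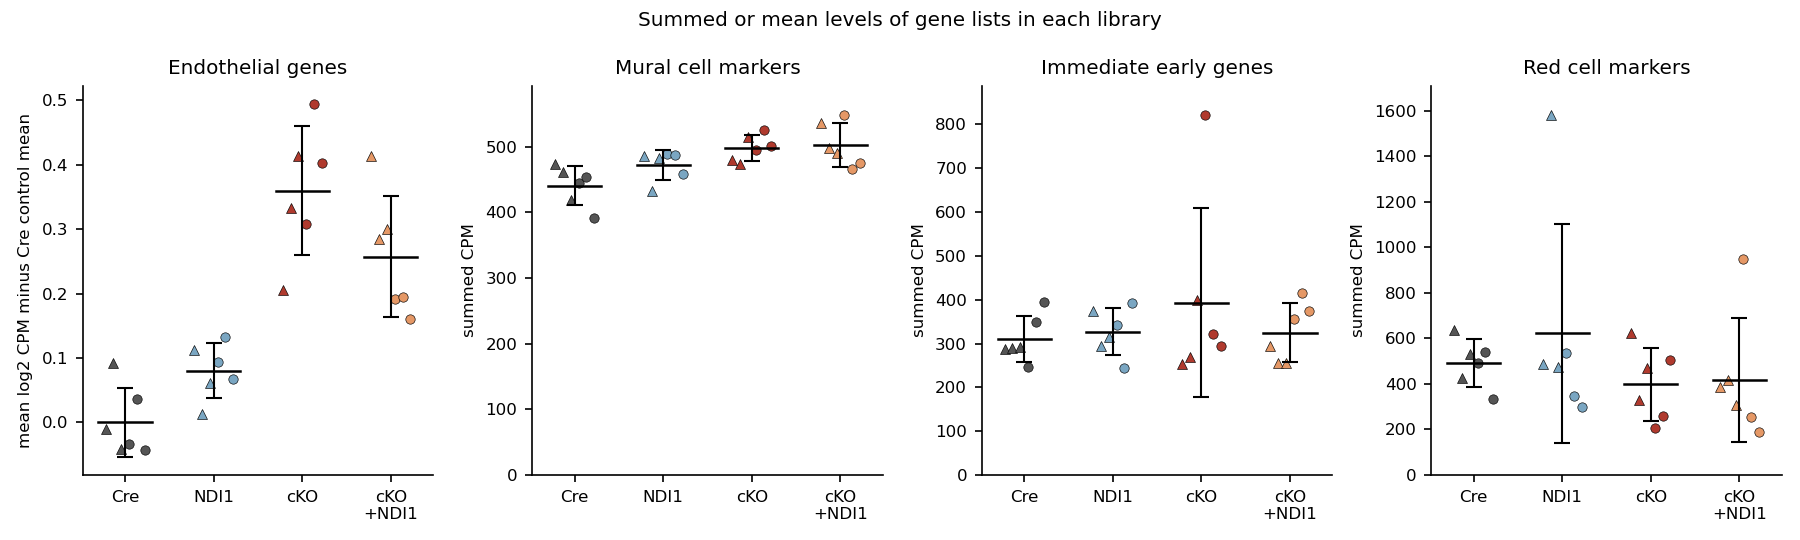
Values per library for 4 gene lists: the mean log2 CPM of the 36 endothelial genes minus the Cre control mean, and the summed CPM of mural, immediate early and red cell markers; triangles are males, circles females, and lines and bars are group means ± SD (n = 6). The endothelial mean is 0.21 to 0.49 in cKO and -0.04 to 0.09 in Cre control, and the sum of immediate early genes is 822 CPM in cKO F1.

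Read as a mean over the list, each cKO library lay 0.21 to 0.49 above the Cre control mean on the log2 scale and each Cre control library between -0.04 and 0.09. Limits of the cKO comparison concern sex and unmeasured variation. With 3 mice a group, 1 member was called in males alone (Pecam1), where 21 of 15396 genes rose. In females alone 8 were called, where 198 of 15302 genes rose. With 1 surrogate variable added to the model 17 were called, where 1524 of 15300 genes rose, against 468 in the main fit.

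The knockout was next read with NDI1 present on both sides, as cKO+NDI1 against NDI1 control. Of 36 members 0 passed, and 0% of all genes tested passed, with 14 members and 4.48% of all genes at an unadjusted p under 0.05 (edgeR). DESeq2 called 1 member, Pecam1, where 13 of 15300 genes rose and 10 fell. The edgeR fit with 1 surrogate variable called 4, Pecam1, Podxl, Sox17 and Ly6a, where 30 of 15300 genes rose and 23 fell. Fold changes were positive in 26 of 36 members and 46.9% of all genes, with a median of 0.18 against -0.01 over all genes. Pecam1 was at 0.43 ± 0.09 (adjusted p = 0.154), Edn1 at 0.81 ± 0.20 (0.288), Sox17 at 0.61 ± 0.16 (0.376) and Ctla2a at 0.56 ± 0.18 (0.771). Podxl was the 1 member with every cKO+NDI1 library above every NDI1 control library, at 42.3 to 56.6 CPM against 31.5 to 42.2, which 0.19% of all genes showed. Slco1a4 was the 1 member with every library below, at 62.9 to 77.5 CPM against 77.7 to 91.5, which 0.124% of genes showed, and its log2 fold change was -0.24 ± 0.10 (adjusted p = 0.946). In 4 of the 5 transporters the fold change was negative, and in all 6 transcription factors it was positive, with 0 passing in either role. Of the 108 pathway genes and 15 mural markers 0 passed, the smallest p being that of Cav1 and Cnn1.

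Set side by side, the 2 knockout comparisons share no library. Sox18 was at 1.10 ± 0.18 without NDI1 and 0.56 ± 0.18 with it, Bcl6b at 1.35 ± 0.29 and 0.83 ± 0.31, Eng at 0.51 ± 0.11 and 0.21 ± 0.11, and Nos3 at 0.48 ± 0.12 and 0.30 ± 0.12. Robo4 and Adgrl4 were at 0.28 ± 0.09 and 0.38 ± 0.13 with NDI1. All of these genes were named because they passed in cKO against Cre control. That choice favours large first values, so a smaller second value does not by itself show an effect of NDI1. The difference between the comparisons was tested as an interaction. It passed for 0 members and 0% of all genes, with 5 of 36 members and 5.18% of all genes at an unadjusted p under 0.05 in edgeR and 0 members called by DESeq2. The interaction was -0.33 ± 0.13 for Pecam1 and -0.67 ± 0.25 for Ctla2a (adjusted p = 0.852 for both), -0.54 ± 0.25 for Sox18 (0.96) and -0.53 ± 0.29 for Edn1 (1). These genes, too, had passed in cKO against Cre control. The interaction was negative in 29 of 36 members, with a median of -0.19 against -0.01 over all genes. Over all genes 48.5% were positive.

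**Figure D4:**
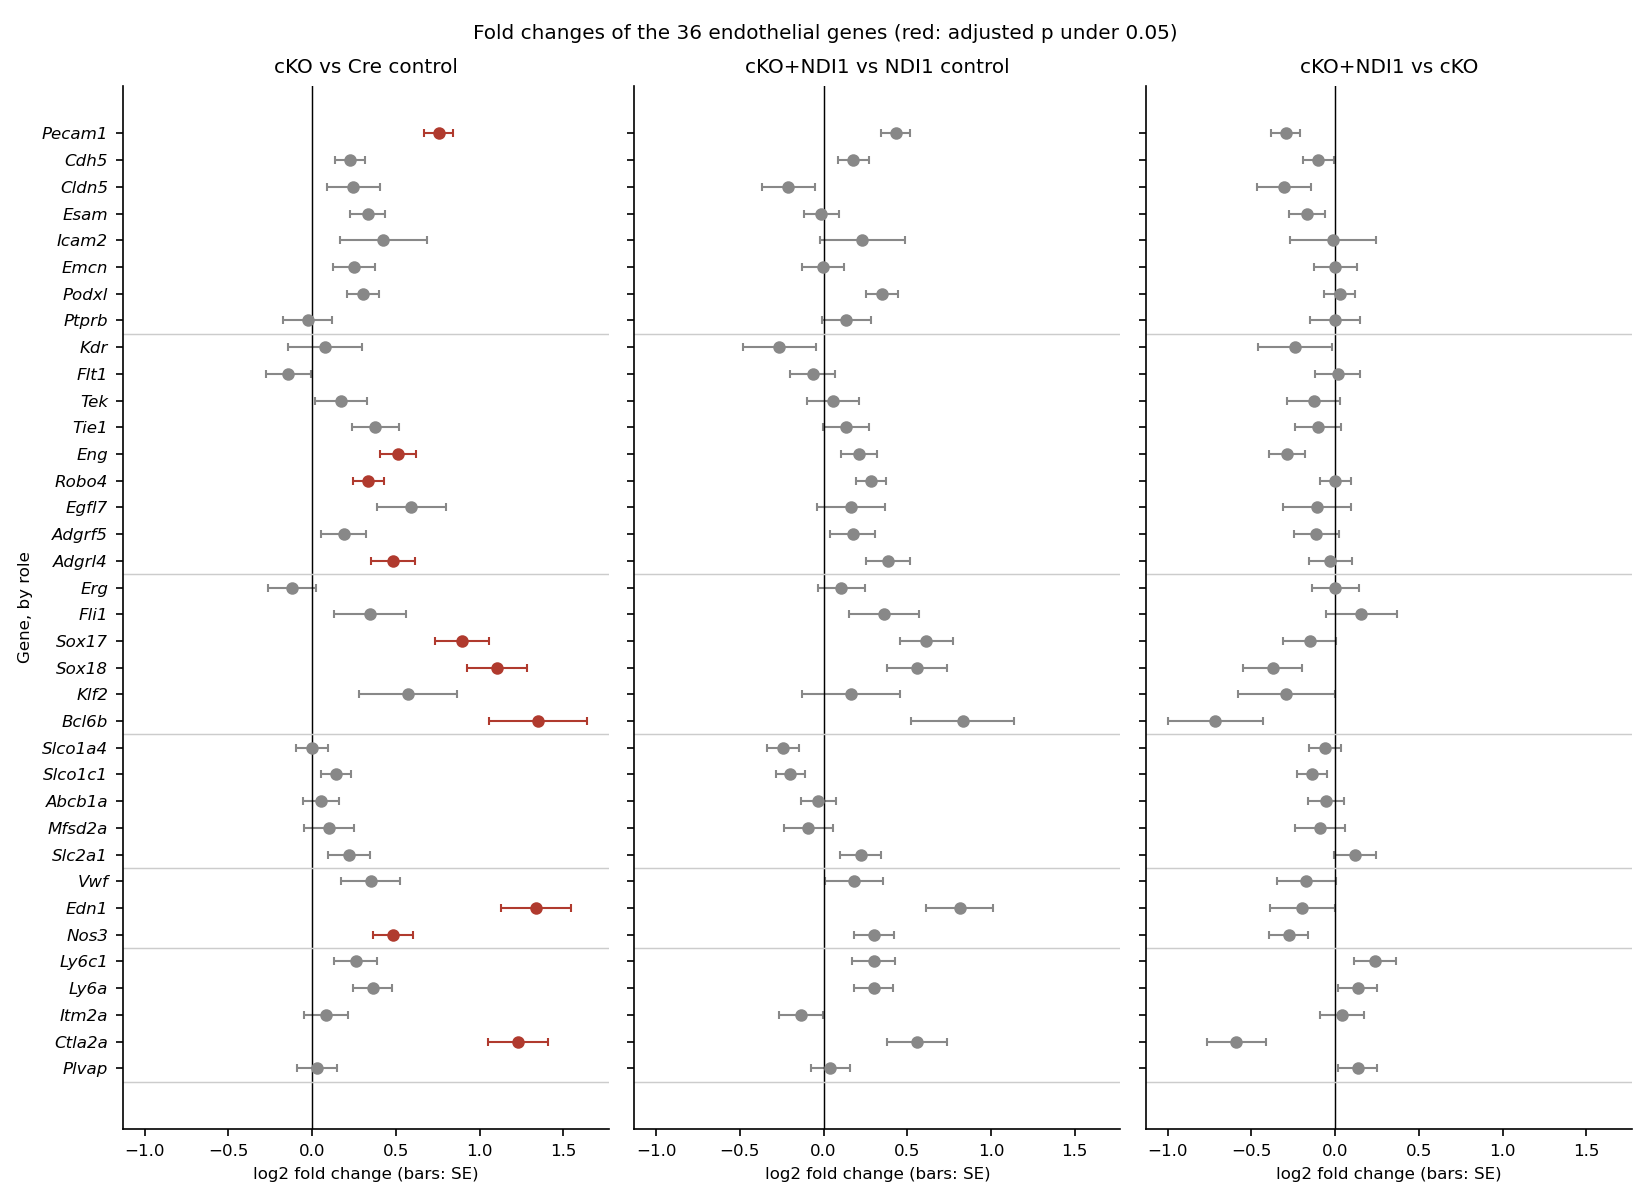
Log2 fold change with its SE for each endothelial gene, by role, in 3 comparisons (cKO against Cre control, cKO+NDI1 against NDI1 control and cKO+NDI1 against cKO); red points have an adjusted p under 0.05. Red points number 10 in the panel of cKO against Cre control and 0 in the others.

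NDI1 was then compared within the knockout, as cKO+NDI1 against cKO, which shares the cKO libraries with the comparison against the Cre control. No member passed in either direction, where 0.209% of all genes did, and 6 of 36 had an unadjusted p under 0.05, against 8.56% of all genes (DESeq2 also called 0). Fold changes were negative in 24 of 36, with a median of -0.10 against -0.01 over all genes, of which 47.6% were positive. In males alone the median of the members was 0.0096. Ctla2a was at -0.59 ± 0.18 and Pecam1 at -0.30 ± 0.09 (both adjusted p = 0.214), Bcl6b at -0.71 ± 0.28 (0.435), Eng at -0.29 ± 0.11 (0.389), Nos3 at -0.28 ± 0.12 (0.48) and Sox18 at -0.37 ± 0.18 (0.56). Robo4 and Adgrl4 were at 0.00 ± 0.09 and -0.03 ± 0.13. All of these genes passed against the Cre control through the same cKO libraries, a choice that favours negative values here. The 2 groups overlapped for all 36 members, while 0.954% of all genes did not overlap. Of the 108 pathway genes, Ece2, an endothelin-converting enzyme, was higher in cKO+NDI1 (0.32 ± 0.07, adjusted p = 0.0353) and Hey1 lower (-0.32 ± 0.07, 0.0455). Mural markers gave 0 of 15. With 1 surrogate variable 1 member was called lower, Pecam1, where 192 of 15300 genes were lower.

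Against the Cre control, cKO+NDI1 mice had 5 members higher and 0 lower, where 0.843% of all genes were higher. This comparison shares its controls with that of cKO, so the values are given side by side and not as a second line of evidence. Edn1 was at 1.14 ± 0.21 (adjusted p = 0.00949), against 1.34 ± 0.21 in cKO. Pecam1 was at 0.46 ± 0.09 (0.016) against 0.76 ± 0.09, Sox17 at 0.74 ± 0.16 (0.0272) against 0.90 ± 0.16, and Sox18 at 0.73 ± 0.18 (0.0444) against 1.10 ± 0.18. Ly6a, which did not pass in cKO, was at 0.50 ± 0.11 (0.0326) against 0.36 ± 0.12. Ly6a stood at 23.4 to 38.3 CPM in Cre control (median 33.4), 32.1 to 51.4 in NDI1 control (34.6), 35.7 to 50.7 in cKO (41.4) and 35.4 to 53.8 in cKO+NDI1 (45.8), so cKO+NDI1 overlapped both controls. The cKO+NDI1 libraries lay wholly above the Cre control for Pecam1, Podxl, Edn1 and Ctla2a, as for 0.765% of all genes.

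Only Edn1 kept its call in that comparison when each library was left out in turn. Pecam1 lost it without Cre control M2 (adjusted p = 0.0511), and the highest adjusted p was 0.0808 for Sox17, 0.102 for Ly6a and 0.12 for Sox18. The count of 5 was 1 without Cre control M2, 2 without Cre control M3, F1 or F3 or without cKO+NDI1 M2 or M3, 3 without cKO+NDI1 F2 and 8 without cKO M3, and 0 in females alone. Over all genes, 129 were higher in the main fit and 31, 21 to 58, 39, 156 and 0 in these fits, in the same order. Among pathway genes 8 of 108 were higher and 1 lower. The higher ones were Cav1 (0.69 ± 0.11, 0.00414), Cavin1 (0.50 ± 0.10, 0.0181), Spns2 (0.20 ± 0.05, 0.0498), Pdgfb (0.53 ± 0.11, 0.0249), Jag2 (0.57 ± 0.14, 0.0383), Cd34 (0.45 ± 0.11, 0.0482), Thbd (0.57 ± 0.14, 0.0488) and Adgra2, a Wnt co-receptor (0.34 ± 0.08, 0.0397). Slc16a1, a monocarboxylate transporter, was the lower gene (-0.33 ± 0.08, 0.0389). The mural marker Acta2 was higher as well (0.73 ± 0.14, 0.0181), 1 of 15.

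NDI1 without the knockout was compared with the Cre control. Of the members 0 passed, as against 0.00654% of all genes, and 1 of 36 had an unadjusted p under 0.05 in edgeR, against 9.2% of all genes, with 0 called by DESeq2. That 1 was Slco1c1, at 0.20 ± 0.09 (adjusted p = 0.506). Fold changes were positive in 26 of 36 members and 51.4% of all genes, with a median of 0.11 against 0.01 over all genes. The member mean lay at 0.01 to 0.13 per library. Edn1 was at 0.33 ± 0.21 (0.63) and Pecam1 at 0.03 ± 0.09 (0.914).

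Sex was the last comparison. Between males and females 0 members passed and 0.085% of all genes did, with 5 of 36 members and 16.9% of all genes at an unadjusted p under 0.05 in edgeR and 0 members called by DESeq2. The smallest p was that of Sox17, at 0.32 ± 0.11 in males minus females (adjusted p = 0.291). The difference of the knockout effect between the sexes, males minus females, passed for 0 members and 0% of all genes, and DESeq2 called 0 members. At an unadjusted p under 0.05 stood 8 of 36 members and 20.6% of all genes, so the members' share was near that of all genes. Itm2a had the smallest p there, at -0.74 ± 0.19 (adjusted p = 0.21): its log2 fold change in cKO was -0.31 in males alone and 0.43 in females alone. Klf2 was at -1.15 ± 0.53 (0.234), Abcb1a at 0.50 ± 0.19 (0.21) and Pecam1 at 0.14 ± 0.18 (0.646).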

How the data were processed

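Polyadenylated RNA of 24 cerebella was sequenced. The build mm10 and the tools bcl2fastq, Trimmomatic, STAR and HTSeq are named in the submitters' processing notes; versions and strand setting are not given in the sources used here. The deposited table holds raw counts per gene as the authors made them, and 0 columns were left unused. The 36 members, the gene lists and the tests were chosen with earlier results of these data known. Counts were scaled by TMM, genes were filtered with filterByExpr, and 15300 genes were tested in 1 edgeR 4.0.16 quasi-likelihood model (R 4.3.3, limma 3.58.1) of group and sex. Benjamini-Hochberg adjustment covered the 15300 genes of each comparison, with a threshold of 0.05. An SE is the fold change over the root of F, and log CPM used a prior count of 2. The pipeline was tested on simulated data. No libraries were copies of each other (60 within-group pairs). Named were all members that passed, the most abundant of each role, and up to 4 passing genes of each other list. Alternatives were RLE factors, library size alone, DESeq2 1.42.0, limma-voom, no filter, thinned counts, only the groups compared, 1 surrogate variable (sva 3.50.0), no sex term, length offsets, a replicate block, each sex alone, each library left out, and the whole promoter window.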

Additional observations from a re-analysis of the deposited data

Results flagged for a closer look

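Single libraries that stood far from the other 5 of their group were sought for each gene in each group: Dixon's test marked 9 of 144, where chance marks about 1 in 20. Of these, 4 were in the library cKO F1: Adgrl4 at 70.3 CPM against 37.7 to 46.5 in the other 5, Slc2a1 at 277 against 151 to 193, Edn1 at 15.3 against 6.02 to 9.23, and Ctla2a at 51.9 against 19.01 to 30.2. In cKO+NDI1 F1, Cldn5 stood at 87.4 CPM against 52.8 to 62.8, and Mfsd2a at 11.01 against 18.3 to 21.4. Bcl6b stood at 6.49 CPM in cKO+NDI1 M1 against 2.25 to 3.57. Slco1a4 stood at 102 CPM in cKO M2 against 59.2 to 73.3. Edn1 stood at 2.45 CPM in Cre control F3 against 3.35 to 3.48. Without cKO F1, Edn1 and Ctla2a kept their calls in cKO against Cre control, and Adgrl4 lost its call.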

How the results depend on the processing

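In cKO against Cre control, the count of 10 members higher became 17 with 1 surrogate variable and 1 in males alone. Over all genes, 468 higher became 1524 and 21. The member count was 8 to 11 when each library was left out and 8 to 13 under the other alternatives. Over all genes, the counts there were 320 to 545 and 191 to 654. Pecam1 passed under every alternative run, and 8 of the 10 passed in all 24 fits that left out 1 library, Robo4 and Adgrl4 being the exceptions. In cKO+NDI1 against NDI1 control, 0 became 1 with DESeq2 and 4 with 1 surrogate variable. Over all genes, 13 and 30 rose and 10 and 23 fell in these 2 fits. In cKO+NDI1 against cKO, 0 lower became 1 with 1 surrogate variable, while 19 lower over all genes became 192. The median log2 fold change of members turned from -0.10 to 0.0096 in males alone. In cKO+NDI1 against Cre control, 5 higher became 10 with DESeq2, 2 with thinned counts, 11 with 1 surrogate variable, 8 with length offsets, 2 in males alone and 0 in females alone, and 1 to 8 when each library was left out. Over all genes, 129 higher became 274, 44, 731, 170, 12 and 0 in the same order, and 21 to 184 with each library left out. The causes were not tested, although each sex alone has fewer samples. The other comparisons called 0 members under every alternative run. With group and sex removed, 14 of 36 same-numbered pairs of libraries had a correlation over 0.1 (median -0.02, range -0.47 to 0.47). Pairs of unlike number were not read beside them, so this does not decide whether replicate numbers pair libraries. With the replicate block the member counts were 10 in cKO against Cre control, 6 in cKO+NDI1 against Cre control and 0 elsewhere. Over all genes, 472 and 133 were higher in the first 2 of these.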
